A study of Mus musculus with 7 samples.

Results

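The variable segments of the T cell receptor alpha and beta chains were studied in RNA of CD4+ cells sorted from mouse spleen. They were taken as all genes whose symbol begins with Trav (alpha) or Trbv (beta), which gave 163 of the 19589 genes in the deposited table, 128 Trav and 35 Trbv. Each segment is described by its share of its own family, which is its RPKM (reads scaled to gene length and library depth) as a percent of the summed RPKM of all Trav or all Trbv segments in that library. The comparison was between 3 libraries labelled RT (RT1 to RT3), from mice that the series describes as lacking Tet2 and carrying G17V RHOA, and 4 wild-type libraries (WT1 to WT4). Tet2 encodes a DNA demethylating dioxygenase, and RHOA is a small GTPase. All mice are labelled C57BL/6. The labels give no age, sex or promoter driving the mutant RHOA. Each library comes from its own mouse, per the series text, so the spread between libraries includes that between mice.

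A T cell builds its receptor by joining 1 alpha V segment to a joining segment, and 1 beta V segment to a diversity and a joining segment, before the constant region. Cells that descend from 1 T cell keep the same rearranged V segments. A population of many unrelated CD4+ cells therefore uses many V segments, each at a share set by the locus and by thymic selection, whereas a large clone adds its own segments to the total. The mouse alpha locus also holds duplicated stretches, whose segments carry d or n in their names and can be nearly identical to the original copy. In bulk RNA, fewer cells that use a segment and less RNA of it per cell cannot be told apart.

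The 7 libraries fell into 2 sets. The totals behind the RPKM values were 18566233 to 21800352 reads in WT1, WT2 and RT1, called deep here, and 105763 to 121659 reads in WT3, WT4, RT2 and RT3, called shallow. Whole reads could be worked out for all 124 segments above 0. Trav reads numbered 2214 to 2920 per deep library and 24 to 38 per shallow one, and Trbv reads 2430 to 3184 and 48 to 90. A segment with 0 reads may thus have a share of up to 12.5% of Trav in RT2 and of up to 0.136% in WT1, counting 3 reads as the limit. In the deep libraries only 32 to 44 genes had exactly 1 read, and the commonest read counts were 9, 11 and 14. In the shallow libraries 1596 to 1750 genes had 1 read, the commonest count there. Intervals and limits in this report come from reads, cover counting error only, and treat each read as its own molecule, which was not tested. Where several reads stem from the same molecule, they are too narrow.

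Cd4, Cd3d, Cd3e, Cd3g, Trac, Trbc1 and Trbc2, which define CD4+ T cells, were above 0 in every library. Cd8a, a marker of the other main T cell class, ranged from 0.645 to 4.52 RPKM in wild type. It was listed at 0 in all RT libraries, but its WT3 and WT4 values came from only 1 and 2 reads. A further CD8 gene, Cd8b1, did not follow this split, and its groups overlapped. Its RPKM was 1.74 (WT1), 7.30 (WT2), 0 (WT3) and 5.54 (WT4), against 1.18 (RT1, 38 reads), 0 (RT2) and 5.54 (RT3, 1 read). In RPM (RPKM without the gene length, taken over recovered reads), the 8 B cell markers summed to 959 to 13845 in wild type, highest in WT3 and WT4, and 3266 to 5848 in RT. The 9 CD4 T cell markers held 4849 to 5942 in wild type, 4646 in RT1, 11601 in RT2 and 9614 in RT3.

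Of the 35 beta segments, 21 were above 0 in at least 1 library and 7 in every library: Trbv3, Trbv4, Trbv12-2, Trbv13-1, Trbv13-2, Trbv19 and Trbv31. The 14 at 0 throughout comprised 12 of the 13 annotated pseudogenes, together with Trbv21 and Trbv30. Trbv24, an annotated pseudogene, was above 0 in the deep libraries at 0.251% to 1.17% of Trbv. No beta V exon was 97% or more identical to another, and the closest pair, Trbv13-2 and Trbv13-3, reached 91.8%. The beta segments are therefore less exposed than the alpha segments to reads being split between copies.

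The beta results turned on Trbv3 and on the Trbv13 subgroup, whose products were called V beta 8 in older names. The last 90 bases of their V exons, where the third complementarity-determining region begins, are shown to let a reader see how far these segments differ (GENCODE M21, GRCm38, + strand). Capitals in Trbv3 (chr6:41048739-41048828) mark the conserved cysteine codon. Capitals in Trbv13-1 (chr6:41116379-41116468) and Trbv13-3 (chr6:41130496-41130585) mark the 15 and 10 bases that differ from Trbv13-2 (chr6:41121743-41121832).
Trbv3: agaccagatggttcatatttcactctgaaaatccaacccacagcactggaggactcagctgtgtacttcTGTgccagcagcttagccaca
Trbv13-2: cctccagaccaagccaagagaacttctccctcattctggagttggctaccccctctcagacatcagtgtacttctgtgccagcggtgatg
Trbv13-1: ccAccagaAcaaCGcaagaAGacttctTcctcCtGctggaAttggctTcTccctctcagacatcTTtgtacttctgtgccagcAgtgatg
Trbv13-3: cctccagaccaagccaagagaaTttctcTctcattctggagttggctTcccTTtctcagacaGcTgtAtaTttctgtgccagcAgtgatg

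Trbv3 (chromosome 6, 41048290 to 41048828) held 6.69%, 7.24%, 10.8% and 10.1% of Trbv in WT1 to WT4. It held 7.10%, 13.5% and 46.9% in RT1, RT2 and RT3. RT3 stood far above all other libraries, while RT1 lay within the wild-type range. In reads, 45 of the 90 Trbv reads of RT3 were Trbv3, a share of 50% (95% Wilson interval 39.9% to 60.1%). The same share was 12.5% (5.86% to 24.7%) in WT3 and 11.8% (5.51% to 23.4%) in WT4, so these intervals do not overlap that of RT3. Averaged over libraries, Trbv3 held 8.70% ± 2.04 (SD, n = 4) in wild type. The RT average was 22.5% ± 21.4 (SD, n = 3), or 10.3% without RT3.

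**Figure D1:**
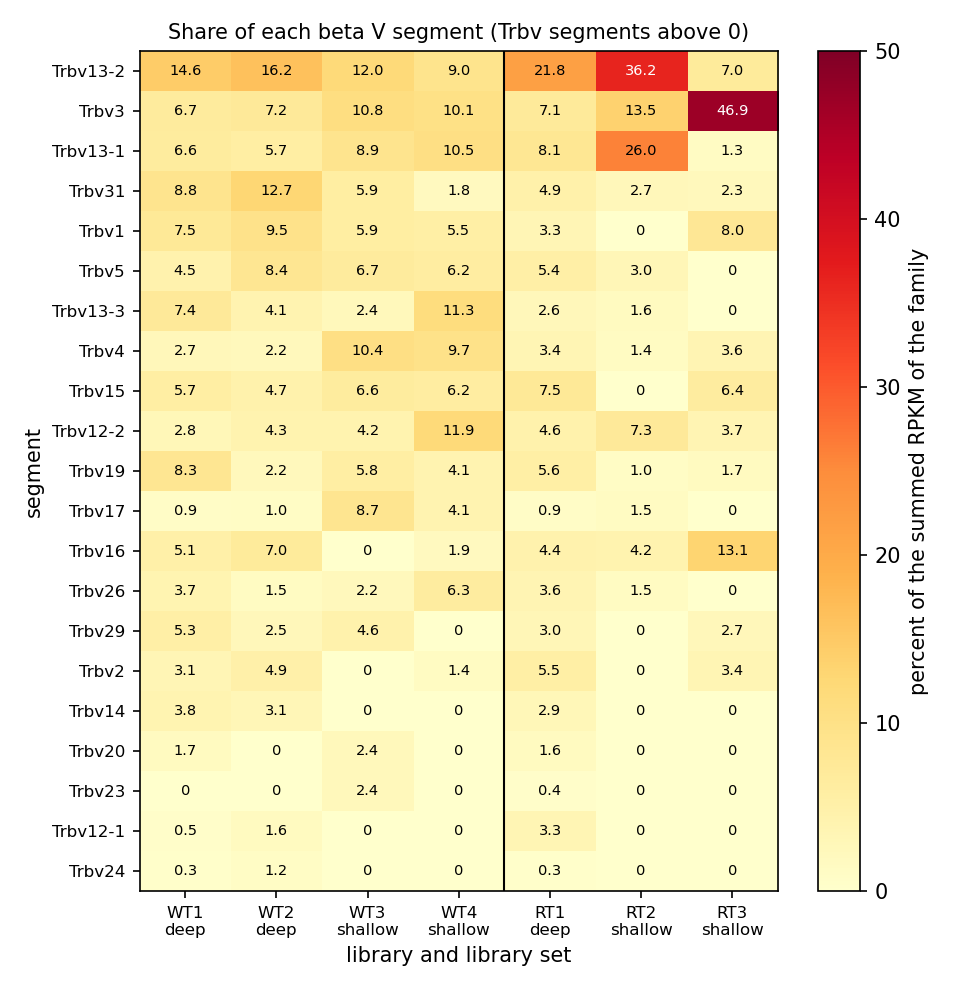
Share of each of the 21 beta segments above 0 (rows, ordered by mean wild-type share) in each library (columns), as a percent of the summed RPKM of Trbv. The darkest cells are Trbv3 in RT3 (46.9%) and Trbv13-2 in RT2 (36.2%), while no wild-type cell exceeds 16.2%.

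Trbv13-2 (chromosome 6, 41121396 to 41121832), the beta segment with the highest mean share in wild type, held 14.6%, 16.2%, 12.0% and 9.01% in WT1 to WT4. It held 21.8%, 36.2% and 6.98% in RT1 to RT3. RT1 and RT2 exceeded every wild-type library and RT3 lay below all of them. The read share was 18.7% (Wilson interval 17.4% to 20.1%) in RT1, against 12.4% (11.1% to 13.8%) in WT1 and 13.9% (12.7% to 15.3%) in WT2. In RT2 it was 32.8% (22.8% to 44.7%).

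Its neighbour Trbv13-1 held 5.75% to 10.5% in wild type, 8.11% in RT1, 26.0% in RT2 and 1.30% in RT3. In RT2 17 of 67 Trbv reads were Trbv13-1, a read share of 25.4% (16.5% to 36.9%). The third member, Trbv13-3, held 7.35%, 4.05%, 2.40% and 11.3% in WT1 to WT4 and 2.63%, 1.65% and 0% in RT1 to RT3, so its groups overlapped only between WT3 and RT1. The Trbv13 subgroup as a whole held 23.4% to 30.7% in wild type, 32.5% in RT1, 63.8% in RT2 and 8.27% in RT3. The subgroup thus lay above the wild-type range in RT1 and RT2 and below it in RT3.

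**Figure D2:**
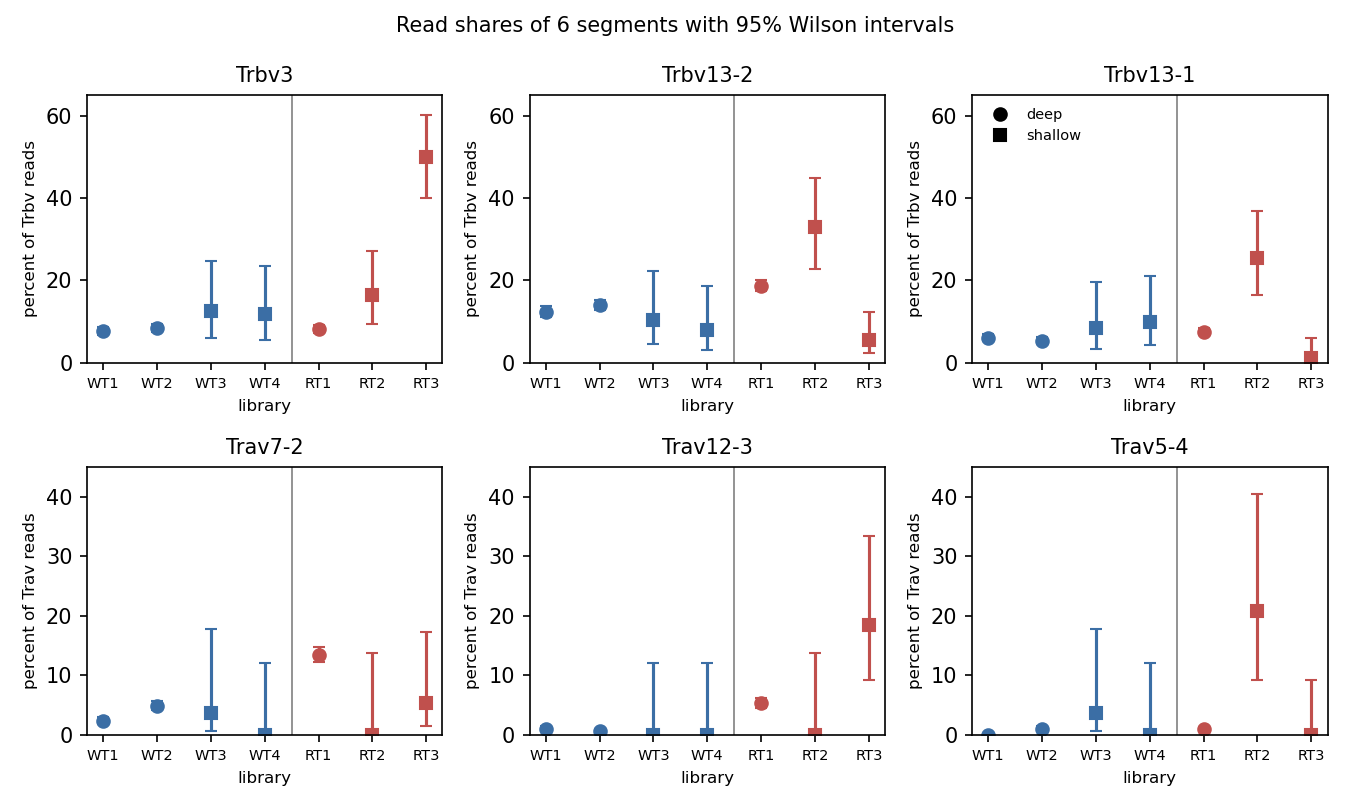
Read share (percent of Trbv or Trav reads) of 6 segments in each library, with 95% Wilson intervals; blue, wild type; red, RT; circles, deep; squares, shallow libraries. Trbv3 stands at 50% in RT3, Trbv13-2 at 32.8% in RT2 and 18.7% in RT1, and Trav7-2 at 13.5% in RT1. The 6 segments are all among the 2 largest of their family in an RT library, so peaks in RT follow from the choice. Segments that led only in wild type, such as Trav4n-4 in WT4 and Trav4d-3 in WT3, are not shown.

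Trbv16 was the next largest beta segment in RT3, at 13.1%. It held 5.08%, 7.0%, 0% and 1.92% in WT1 to WT4, 4.37% in RT1 and 4.22% in RT2. Trbv31, which lies downstream of the constant genes in the opposite orientation (chromosome 6, 41557691 to 41558452, minus strand), held 8.81%, 12.7%, 5.87% and 1.83% in WT1 to WT4. It held 4.87%, 2.68% and 2.27% in RT1 to RT3, below WT1, WT2 and WT3 but not WT4. Trbv5 held 4.47% to 8.40% in wild type and 5.44%, 3.04% and 0% in RT1 to RT3. For both segments the groups overlapped.

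Of the alpha segments, 103 of 128 were above 0 in some library and 54 in all 3 deep libraries, but none in all 7. The 25 at 0 throughout comprised 19 of the 20 annotated pseudogenes and 6 segments annotated as genes. The 45 alpha segments seen in the shallow libraries were all seen in the deep ones. Near-identical copies are common here: 92 of the 128 had another Trav V exon at 97% or more identity, and 38 had one at 100%. No source used here says how reads matching several copies were counted, so the value of a single alpha segment is uncertain, and copies are also given as sums.

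The leading alpha segment differed from library to library in both groups. In wild type it was Trav6-3 in WT1 (4.10%), Trav7-2 in WT2 (5.69%), Trav4d-3 in WT3 (12.6%, from 3 reads) and Trav4n-4 in WT4 (19.7%, from 5 reads). The share of Trav4n-4 in WT4 exceeded the leading shares of RT1 and RT3. In RT1, Trav7-2 (chromosome 14, 53390635 to 53391142) held 15.9% of Trav, against 2.74%, 5.69%, 4.15% and 0% in WT1 to WT4. It held 0% in RT2 and 6.41% in RT3. In reads, 393 of 2920 Trav reads of RT1 were Trav7-2, a read share of 13.5% (12.3% to 14.7%), against 2.30% (1.76% to 3.02%) in WT1 and 4.79% (4.06% to 5.65%) in WT2. Its closest copy, Trav7d-2, is 99.7% identical, and the pair summed to 17.1% in RT1 and to at most 6.03% in wild type. RT1 therefore stood above all wild-type libraries for the pair as well.

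In RT2 the leading alpha segments were Trav5-4, at 23.0%, and Trav4-4-dv10, at 17.5%. Trav5-4 held 0%, 1.13%, 4.06% and 0% in WT1 to WT4, 1.03% in RT1 and 0% in RT3. These rest on 5 and 4 of 24 Trav reads, with Wilson intervals of 9.24% to 40.5% for Trav5-4 and 6.68% to 35.9% for Trav4-4-dv10. The interval of Trav5-4 overlaps that of WT3 (0.633% to 17.7%). Summed with its copies, the Trav4-4 group held 21.97% in RT2 and 23.6% in WT4, so it did not set RT2 apart.

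In RT3 Trav12-3 held 17.1% and Trav19 16.9%, each from 7 of 38 Trav reads (18.4%, Wilson interval 9.22% to 33.4%). Trav12-3 (chromosome 14, 53621657 to 53622245) stood at 0.899% and 0.521% in WT1 and WT2, at 0% in WT3 and WT4, at 4.72% in RT1, where it was the next largest after Trav7-2, and at 0% in RT2. In the deep libraries its read share was 5.27% (4.52% to 6.15%) in RT1 against 0.994% (0.657% to 1.5%) in WT1 and 0.577% (0.355% to 0.935%) in WT2. Trav19 (chromosome 14, 53845234 to 53845827) was listed at 0 in all 4 wild-type libraries and in RT2, and held 0.699% in RT1. Trav19 has no near copy, with 68.9% identity to its closest relative, Trav14-3.

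**Figure D3:**
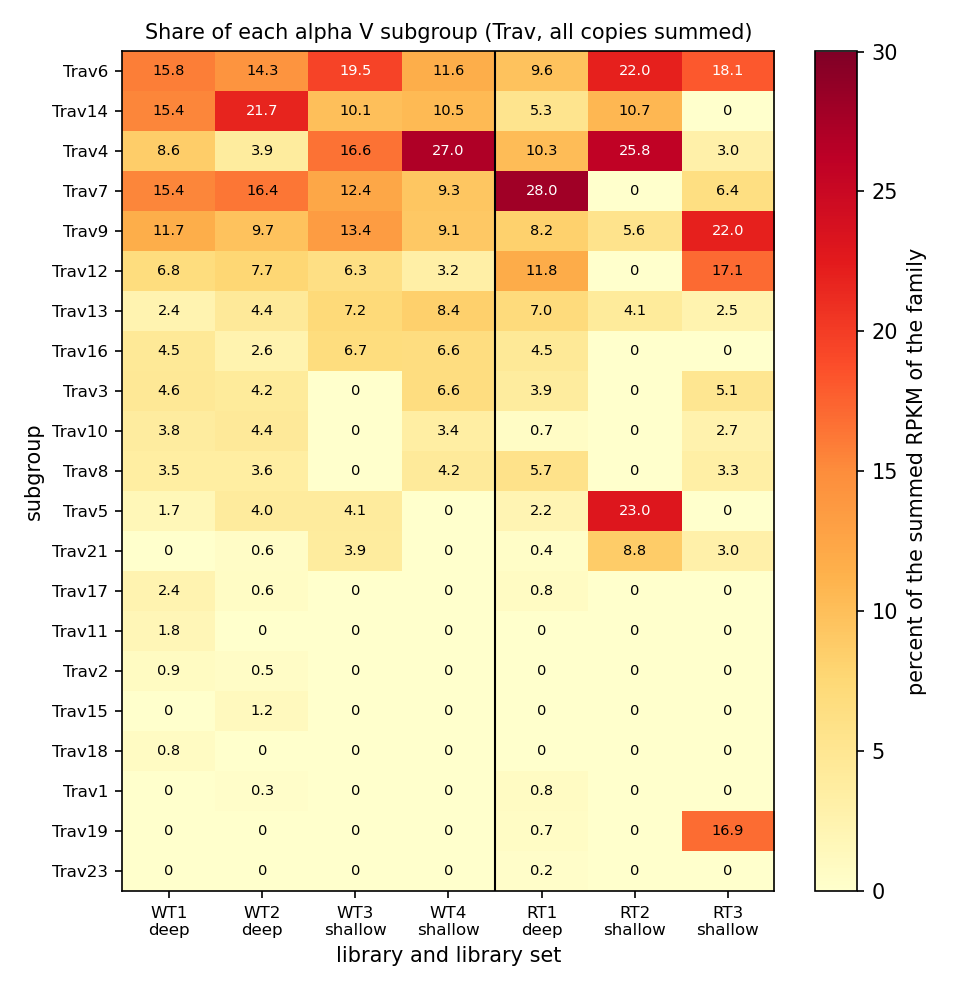
Share of each alpha subgroup (all segments of 1 number summed; subgroups at 0 throughout left out) in each library, as a percent of the summed RPKM of Trav. Trav7 is highest in RT1 (28.0%), Trav5 in RT2 (23.0%) and Trav9, Trav12 and Trav19 in RT3 (22%, 17.1% and 16.9%), while Trav4 is high in both WT4 (27.0%) and RT2 (25.8%).

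Summed into subgroups, the leaders were Trav7 in RT1 (28.0%), Trav4 in RT2 (25.8%) and Trav9 in RT3 (22%). Trav4 also led WT4 (27.0%), and held 3.92% to 16.6% in the other wild-type libraries, 10.3% in RT1 and 3.04% in RT3. Trav6 held 11.6% to 19.5% in wild type and 9.61%, 21.95% and 18.1% in RT1 to RT3. Trav5 held 0% to 4.06% in wild type and 23.0% in RT2, 2.21% in RT1 and 0% in RT3. Trav12 held 3.19% to 7.70% in wild type, 11.8% in RT1, 0% in RT2 and 17.1% in RT3. Trav14 held 15.4%, 21.7%, 10.1% and 10.5% in WT1 to WT4 and 5.29%, 10.7% and 0% in RT1 to RT3. No subgroup had all RT libraries beyond all wild-type ones.

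Trav6-5 (chromosome 14, 53491115 to 53491622) was the single segment of the 163 whose shares did not overlap between the groups. It held 2.74%, 3.26%, 3.71% and 3.71% in WT1 to WT4 and was listed at 0 in RT1, RT2 and RT3. Its RPKM was likewise 8.19, 11.3, 22.4 and 21.9 in wild type. Behind these values stood 57 reads in WT1, 85 in WT2 and 1 each in WT3 and WT4. If each read is its own molecule, 0 of 2920 Trav reads in RT1 allow a share of up to 0.103%. In RT2 and RT3 the limits are 12.5% and 7.89%, above the wild-type shares. The absence in RT2 and RT3 was therefore not detectable as a difference at this depth. A 0 in a deep library was not particular to Trav6-5 or to RT1. Trav6-3 had 91 reads in WT1 and 0 in WT2, and Trav12-1 had 0 in WT1 and 70 in WT2.

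The closest copies of Trav6-5 are shown because reads may pass between them. The last 90 bases of the V exons are on the + strand of chromosome 14 (GENCODE M21, GRCm38), and capitals mark the bases that differ from Trav6-5 (chr14:53491533-53491622), 1 in Trav6n-5 (chr14:53105255-53105344) and 9 in Trav6d-5 (chr14:52795544-52795633).
Trav6-5: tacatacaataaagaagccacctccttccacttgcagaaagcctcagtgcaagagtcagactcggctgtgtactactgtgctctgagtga
Trav6n-5: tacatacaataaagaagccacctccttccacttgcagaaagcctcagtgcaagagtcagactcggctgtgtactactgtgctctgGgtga
Trav6d-5: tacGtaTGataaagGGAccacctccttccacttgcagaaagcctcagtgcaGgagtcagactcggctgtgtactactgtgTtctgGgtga

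Over the whole V exon Trav6n-5 is 98.6% and Trav6d-5 95.5% identical to Trav6-5. RT1 had 22 reads of Trav6d-5 and 4 of Trav6n-5, against 7 and 0 in WT1 and 0 and 1 in WT2. The 3 copies summed to 3.12%, 3.30%, 7.84% and 3.71% of Trav in WT1 to WT4 and to 1.04%, 0% and 0% in RT1 to RT3. With copies summed, the Trav14-1 group also had no overlap, at 7.90%, 8.60%, 10.1% and 6.85% in wild type and 1.56%, 3.81% and 0% in RT. In both groups of copies every RT library lay below every wild-type one. The shallow values of the Trav14-1 group rested on 3 and 2 reads in WT3 and WT4 and 1 and 0 in RT2 and RT3. In RT3, 0 reads allow up to 7.89% of Trav, above the WT4 share of both groups. The differences in RT2 and RT3 were therefore not detectable at this depth. In RPKM of single genes, groups did not overlap for 3.34% of all genes above 0, with RT lower.

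In the test across all genes, limma on log2(RPKM + 1) kept 73 of the 163 segments, those at 1 RPKM or more in at least 3 libraries. Trav6-5 fell by 3.97 ± 0.49 (log2, SE; limma adjusted p = 0.0473), with all 3 RT libraries below the 4 wild-type ones. It passed the filter on low values through wild type alone, being at 0 in RT, and without that filter the same difference was not called (limma adjusted p = 0.199). It was 1 of 73 segments lower and 0 were higher, where 0.0104% of all 9605 genes were called lower and 0.0416% higher. The 1 gene behind that 0.0104% was Trav6-5 itself, so the share is no separate background for this segment. At an unadjusted p under 0.05 there were 4 segments higher and 6 lower, beside 435 and 400 genes. Groups did not overlap in RPKM for 1 segment lower in RT and 0 higher, against 4.57% and 4.47% of the genes tested. Over the 124 segments above 0 in any library the counts were the same, 1 lower and 0 higher, against 3.34% and 3.27% of all genes above 0. The median log2 difference of the segments kept had opposite signs in the 2 fits of these data. It was -0.42 here, against 0.00 over all genes, and 0.48 in the fit on reads described next, against -0.03 over all genes. The 2 medians cover different segments, since those kept in reads were all Trbv except Trav9d-4.

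The call of Trav6-5 was lost in 5 of 7 other settings (pseudocounts of 0.1 and 10, no filter on low values, a filter at 5 RPKM, and a replicate block) and when any of WT2, WT3, WT4, RT2 or RT3 was left out, with limma adjusted p-values from 0.0193 to 0.318 over all of these fits. The size of the difference depended on the pseudocount, at -7.20 with 0.1 and -1.33 with 10. With 4 against 3 libraries, an exact permutation test of 1 value cannot give a two-sided p under 0.0571.

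In a second fit, limma voom on the whole reads with a term for the library set, 10 of the 163 segments had the 10 or more reads over the shallow libraries that were required. Of these Trbv1 was called lower and 0 were called higher, with 1 lower and 1 higher at an unadjusted p under 0.05. Over all 5876 genes 7.91% were called lower and 9.34% higher, so 1 of 10 is near the background. Trbv1 fell by 1.23 ± 0.28 (log2, SE; limma adjusted p = 0.0222). Its shares were 7.49%, 9.46%, 5.88% and 5.51% in WT1 to WT4 and 3.28%, 0% and 7.96% in RT1 to RT3, so that RT3 lay within wild type. Without RT1 its log2 difference was -0.74 ± 1.28 and the call was lost (limma adjusted p = 0.933), and it was not called in the deep or the shallow libraries alone (-1.26 and -0.61).

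Trbv3, Trbv13-2 and Trav12-3, which led in 1 or more RT libraries, did not pass over the groups. Trbv3 had a log2 difference of 1.73 ± 1.09 on the log2(RPKM + 1) scale (limma adjusted p = 0.696) and of 0.33 ± 0.31 in reads (limma adjusted p = 0.515). In the shallow libraries alone, RT2 and RT3 against WT3 and WT4, it was 1.89 ± 0.52 (limma adjusted p = 0.0125). That fit called 186 of 5876 genes higher. Trbv3 was named for its high share in RT3, so a call in a fit that holds RT3 is no separate support. The fits test levels, not shares of Trbv. Trbv13-2 had 1.26 ± 0.73 on the log2(RPKM + 1) scale (limma adjusted p = 0.668) and 0.64 ± 0.23 in reads (limma adjusted p = 0.0896). In reads Trbv13-2 was called only without RT2, at 0.60 ± 0.15 (limma adjusted p = 0.0411), among the fits that left out 1 library. The fit without RT2 called 545 of 5876 genes higher. For Trav12-3 the difference was 2.86 ± 1.37 on the log2(RPKM + 1) scale (limma adjusted p = 0.614).

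How evenly the segments were used was summarised as the effective number of segments, the inverse of the summed squared shares, which equals the number of equally used segments that would be as uneven. For Trbv it was 13.9, 12.0, 12.9 and 11.8 in WT1 to WT4, 11.4 in RT1, 4.41 in RT2 and 3.87 in RT3. RT2 and RT3 stood far below every wild-type value, and RT1 lay just below the wild-type range. The wild-type libraries averaged 12.6 ± 0.93 (SD, n = 4), and the RT libraries 6.57 ± 4.22 (SD, n = 3). In an estimate from reads, the summed squared shares were corrected for the number of reads before the inverse was taken. It gave 12.4 to 16.8 in wild type and 12.5, 5.06 and 3.64 in RT1 to RT3, so that RT1 then lay within wild type. The inverse of a corrected sum is not itself free of depth at few reads. At a fixed depth of 48 Trbv reads, the expected number of segments was 14.8 to 16 in wild type. It was 15.9, 10.4 and 10.6 in RT1 to RT3, so RT1 again lay within wild type. The 3 leading beta segments together held 31.7% to 38.4% of Trbv in wild type, 37.3% in RT1, 75.7% in RT2 and 68.0% in RT3.

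For Trav the effective number was 46.3 and 45.3 in WT1 and WT2 and 24.1 in RT1. Among the shallow libraries it was 15.5 and 12.8 in WT3 and WT4, and 8.65 and 10.3 in RT2 and RT3. It was lower in RT within each set, and the sets did not reach the same level. The estimate from reads gave 45.8 and 44.5 in the deep wild-type libraries against 27.5 in RT1, and 29.1 and 25.2 in the shallow ones against 14.5 and 12.6. At a fixed depth of 24 Trav reads, the expected number of segments was 19.02, 18.99, 17.1 and 17.1 in WT1 to WT4. It was 17.7, 14 and 13.0 in RT1 to RT3. By that measure RT1 lay within the wild-type range, though below WT1 and WT2, and RT2 and RT3 lay below it. The difference in means of the RPKM-based value was -15.6 segments. It was -7.20 with d and n copies summed, -4.61 in the shallow libraries alone, -21.8 in the deep ones alone, and -21.4 to -10.2 when 1 library was left out, the smallest without WT1. Because these are scores over segments chosen with results of these libraries known, no p is given.

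**Figure D4:**
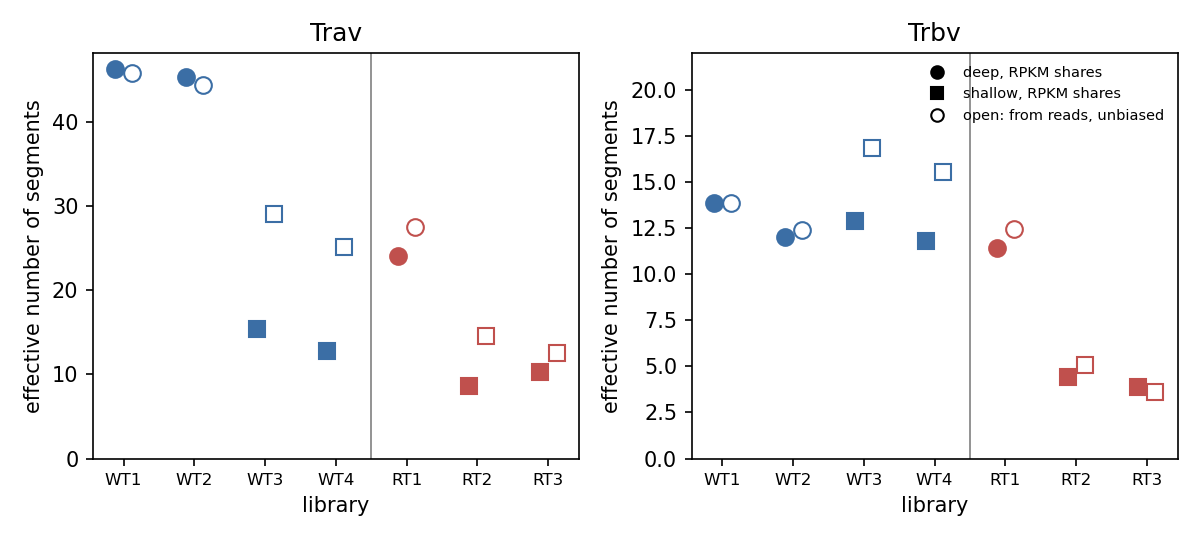
Effective number of Trav (left) and Trbv (right) segments in each library, from RPKM shares (filled) and from reads (open, marked unbiased). The correction for read number applies to the summed squared shares, not to their inverse. Wild type is blue and RT red, with circles for deep and squares for shallow libraries. For Trbv, RT2 and RT3 lie at 3.64 to 5.06 and all other libraries at 11.4 or more; for Trav, RT lies below wild type within the deep and within the shallow libraries.

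The likeness of 2 libraries was measured as the sum over segments of the smaller of their 2 shares. For Trbv, WT1 and WT2 shared 80.7% of their usage, and RT1 shared 80.04% and 77.5% with them. WT3 and WT4 shared 74.6%. RT2 and RT3 shared 44.2% to 50.7% with WT3 and WT4, and only 34.4% with each other, the lowest value among pairs within a library set. For Trav the deep wild-type pair shared 62.8% and RT1 shared 48.8% and 52.0% with it. The shallow pairs shared 15.6% to 29.7%, with 15.9% for WT3 and WT4, so Trav did not separate the genotypes there.

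Alpha segments that are neither d nor n copies had totals that did not overlap between the groups. These 55 segments held 58.1%, 51.8%, 30.7% and 45.5% of Trav in WT1 to WT4 and 60.1%, 65.8% and 83.1% in RT1 to RT3. Every RT library lay above every wild-type one. In reads RT1 was at 57.8% (Wilson interval 56.0% to 59.6%) and WT1 at 57.1% (55.1% to 59.2%), which overlap. The n copies held 21.9% to 29.1% in wild type and 19.5%, 4.41% and 8.06% in RT1 to RT3. The d copies held 20.0% to 40.3% in wild type and 20.4%, 29.8% and 8.85% in RT. This grouping was read after its values were seen and was not tested.

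The constant genes of the beta chain give a readout that the V segments did not choose. Trbc1 and Trbc2 each follow their own cluster of diversity and joining segments, so a cell's rearrangement decides which is transcribed. Trbc1 held 35.5%, 36.7%, 32.6% and 44.4% of the Trbc1 and Trbc2 reads in WT1 to WT4. It held 30.01% (Wilson interval 29.2% to 30.8%) in RT1, 28.6% (24.2% to 33.4%) in RT2 and 58.3% (52.8% to 63.7%) in RT3. The RT3 value, in the library led by Trbv3, lay above all wild-type values, and its interval does not overlap that of WT4 (37.1% to 51.9%). RT1 and RT2 had the lowest values, and both lie inside the interval of WT3 (26.1% to 39.8%). RT2 could not be told from WT3 at this depth, though its interval lies below that of WT4. The interval of RT1 lies below those of the deep libraries WT1 (34.6% to 36.4%) and WT2 (35.8% to 37.5%). RT1 is the only deep RT library, and the difference was not tested. The 2 genes are near copies in sequence, and the split of reads between them is uncertain.

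**Figure D5:**
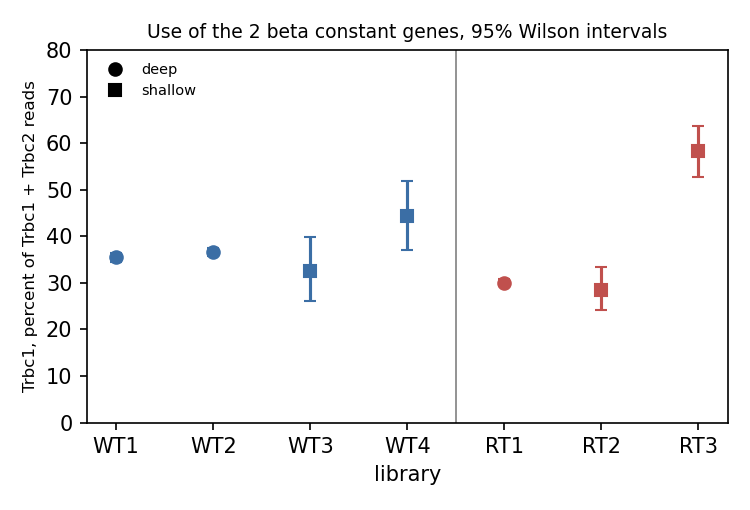
Trbc1 as a percent of Trbc1 and Trbc2 reads in each library, with 95% Wilson intervals; blue, wild type; red, RT; circles, deep; squares, shallow libraries. RT3 stands at 58.3%, above the wild-type values of 32.6% to 44.4%, and RT1 and RT2 stand at 30.01% and 28.6%.

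Neither Trbc1 nor Trbc2 passed the test, with log2 differences of 0.93 ± 0.89 and 0.86 ± 0.90 on the log2(RPKM + 1) scale (limma adjusted p = 0.815 and 0.828). The 14 Trbj genes, which hold the joining segments, had 0 reads in each deep library and 5 to 15 reads in each shallow one. Of the 15 in RT2, 7 were Trbj2-1, a segment of the Trbc2 cluster, against 0 to 2 reads in the other shallow libraries.

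Family totals were set beside the rest of the receptor. Trbv summed to 328, 344, 1028 and 1074 RPKM in WT1 to WT4 and to 369, 1690 and 1733 RPKM in RT1 to RT3. In RPM Trbv held 274, 264, 457 and 473 in wild type and 289, 695 and 808 in RT. Within each set the RT libraries were higher, though RT1 exceeded WT1 little. Trav held 250 to 268 RPM in wild type and 265, 249 and 341 in RT1 to RT3, so that RT1 lay within and RT2 just below the wild-type range. In RPKM Trav was not level over wild type. It summed to 298, 347, 604 and 590 RPKM in WT1 to WT4 and to 338, 598 and 763 RPKM in RT1 to RT3. The narrow wild-type range in RPM rests on the different shares of reads recovered in deep and shallow libraries.

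Trac, the alpha constant gene, stood at 564, 501, 857 and 982 RPM in WT1 to WT4 and at 654, 2032 and 1436 in RT1 to RT3. RT was thus higher within each library set. Of the CD3 and zeta genes that carry the receptor's signal, Cd3g stood at 283 to 519 RPM in wild type and at 362, 1431 and 1023 in RT1 to RT3, and did not pass in reads (log2 difference 0.60 ± 0.19, limma adjusted p = 0.0667). Cd3d, Cd3e, Cd247 and Cd4 did not pass either test. Of 3 signalling genes downstream of the receptor, Zap70, the kinase that binds the zeta chain, rose by 1.09 ± 0.18 in reads (limma adjusted p = 0.00577), in a fit that called 9.34% of all genes higher. Without RT1 the reads fit did not call Zap70 (limma adjusted p = 0.286), nor did the fit on log2(RPKM + 1), where the difference was 1.46 ± 0.56 (limma adjusted p = 0.491). Lck and Lat did not pass in either fit. The CD4 T cell markers were highest in RT2 and RT3 and the B cell markers in WT3 and WT4, and their part in these totals was not tested.

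Trav11, its copies and Trav1, alpha segments of T cells with a fixed receptor, had at most 34 reads in any library. Trav11, the alpha segment of invariant natural killer T cells, was listed at 0 in every library, and its copy Trav11d stood at 5.35 RPKM in WT1, from 34 reads, and at 0 elsewhere. Zbtb16, the regulator of those cells, stood at 2.34 and 1.06 RPKM in WT1 and WT2 and at 0.122 RPKM in RT1, and at 0 in the shallow libraries. Trav1, used by mucosal-associated invariant T cells, had 7 reads in WT2 and 21 in RT1. Trbv29, a beta segment that natural killer T cells also use, held 5.31%, 2.55%, 4.63% and 0% of Trbv in WT1 to WT4 and 2.96%, 0% and 2.69% in RT1 to RT3, with overlapping groups. Of gamma-delta genes, Trdc had 45, 61, 0 and 0 reads in WT1 to WT4 and 30, 1 and 0 in RT1 to RT3.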

How the data were processed

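RNA of sorted CD4+ splenocytes was sequenced in 4 WT and 3 RT libraries made with a TruSeq v2 kit, per the labels' protocols. The deposited values are RPKM per gene symbol, computed by the authors on mm10, per the submitters' processing notes. No source used here names the aligner, the counting rule or the annotation.

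Whole reads were worked out from the steps of the RPKM values with GENCODE M21 exon lengths (10323 genes, all 124 segments above 0 among them; tolerance 0.01 reads) or searched lengths (2279 genes with 1 length, 974 with a length per library set; tolerance 0.003), and 283 genes were left out. Low values came out whole for 78.9% to 83.8% of genes with exon lengths. Genes at 1 RPKM or more in 3 libraries were tested as log2(RPKM + 1) with limma 3.58.1 in R 4.3.3. The added 1 shrinks changes between RPKM values that are themselves low. In the shallow libraries, however, 1 read in a gene of 400 bases is 20.5 to 23.6 RPKM. There 1 read against 0 passes the minimum of 1 RPKM and counts as a large change. Genes with 10 or more reads over the shallow libraries went into a limma voom fit that modelled genotype and library set together. P-values were adjusted over all genes by the Benjamini-Hochberg method (threshold 0.05). Both scripts were tested on simulated data. Intervals are 95% Wilson.

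Named segments are, per family, the 5 with the highest mean wild-type share, the 2 largest in each library, the 3 largest differences of mean share in each direction, called segments and 8 fixed ones. Members, lists and tests were chosen with earlier results of these data known.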

Additional observations from a re-analysis of the deposited data

Results flagged for a closer look

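In 6 of 36 values tested over the 4 wild-type libraries, 1 library lay far from the others (Dixon's test). The usual rate of about 1 flag in 20 groups does not apply to these 6. Trav4d-3, Trav13d-2, Trbv12-2 and Trav6-3 were among the named segments for being large in the very library flagged, and for Trav1, Trav11d and Trav6-3 the other 3 libraries were at 0, which fixes the flag. Trav4d-3 held 12.6% of Trav in WT3, from 3 reads, and at most 0.164% in the other wild-type libraries. Trav13d-2 held 8.41% in WT4, from 2 reads. Trbv12-2 held 11.9% of Trbv in WT4, from 6 of 51 reads. In the deep libraries Trav6-3 held 4.10% of Trav in WT1 and 0% in WT2, where 91 and 0 reads were found. Trav11d held 1.80% in WT1 and Trav1 0.271% in WT2, and both were at 0 in the other 3 wild-type libraries.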

How the results depend on the processing

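The count of segments lower in RT on log2(RPKM + 1), 1 as reported, was 0 with a pseudocount of 0.1 or 10, with no filter, with a filter at 5 RPKM and with a replicate block, and 0 to 1 when 1 library was left out. The count higher was 0 in every fit on log2(RPKM + 1) listed here. In reads, 0 higher and 1 lower of 10 segments became 2 and 3 of 31 with a minimum of 3 reads. Over all 8623 genes that setting called 784 higher and 534 lower. Without the library set term 1 of 10 segments was higher, beside 310 of 5876 genes. With d and n copies summed 2 of 11 were higher, beside 545 of 5877 genes. The shallow libraries alone gave 1 of 10 higher, beside 186 of 5876 genes, and 0 lower. A minimum of 50 reads kept 1 segment, which was not called. Leaving out 1 library gave 0 to 1 in each direction, and the replicate block gave 0 higher and 1 lower. The deviations of same-numbered samples from the group means correlated at 0.43 (WT1, RT1), -0.18 (WT2, RT2) and 0.18 (WT3, RT3). The sign followed the library set, positive within a set and negative between sets, so these values cannot show whether the samples pair. The count of segments with non-overlapping shares was 2 lower with copies summed. It ran from 0 to 7 higher and from 1 to 7 lower when 1 library was left out, with 7 higher without RT2 and 7 lower without WT3, and fewer libraries make gaps likelier. The difference in effective number of Trbv segments was -1.50 in the deep libraries alone, against -6.06 over all 7. Depth limits the shallow libraries most, where 1 read is 2.63% to 4.17% of Trav.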
